A study of Mus musculus with 56 samples.

Results

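*Crhbp* encodes the corticotropin-releasing hormone (CRH) binding protein, and its level was followed in each of 56 wells holding mouse pituitary cells. It was 1 of 47069 genes in the count table and was chosen because earlier results of the same table showed it at a high and uneven level, so its level and its likeness to other genes are given as a description with no test. The cells came from whole pituitaries of untreated female C57BL/6 mice aged 10 to 12 weeks that were cycling at random, with 5 pituitaries pooled into a sample. They were grown for 4 days as a mixed primary culture, trypsinized, stabilized in RNA-Best (a buffer that preserves cells before capture), passed through a 10 µm filter and captured on a Fluidigm C1 chip for small cells. SMART-Seq v4 cDNA from each well was made into a Nextera library, and every well held counts of ERCC RNAs, a set of synthetic spike-in transcripts. The age is that of the growth protocol, and another label gives 3 weeks beside the cycling state. The labels name no animal or culture for any well, so the 56 wells count as 1 sample, all of them untreated.

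CRH is the hypothalamic peptide that drives corticotropes to make and release ACTH from the precursor encoded by *Pomc*. It acts on the receptor encoded by *Crhr1*, which raises cAMP in the cell, and the urocortins are related peptides that also bind the second receptor, encoded by *Crhr2*. The CRH-binding protein is secreted, binds CRH and urocortin outside the cell, and limits how much of either reaches a receptor. In rodents it is made in the brain and in the anterior pituitary.

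The gene (ENSMUSG00000021680.7) lies on the minus strand of GRCm38, at chr13:95431371-95444924 in GENCODE M21, with 1800 bases of exon. No annotated gene overlapped it (0 in that release). The bases just before its 2 annotated starts are shown because they hold 3 matches to ATGNATA, the core letters of sites for POU1F1, the pituitary factor that lactotropes, somatotropes and thyrotropes need. The stretch is chr13:95444925-95445081 (RefSeq sequence, GRCm38.p6, minus strand, 157 bases), written 5′ to 3′ with the matches in capitals:
Crhbp: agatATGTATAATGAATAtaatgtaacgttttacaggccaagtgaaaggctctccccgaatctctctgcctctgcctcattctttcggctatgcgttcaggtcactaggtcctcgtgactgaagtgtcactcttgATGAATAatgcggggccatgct
The first 2 matches adjoin each other, and the third ends 109 bases before the RefSeq start. In the 250 bases before the start, searched on both strands, at least 1 match was present in 7.92% of 32851 RefSeq promoters and 3 or more in 0.189%. Of the other motifs searched in this window, TGACG (the core of a cAMP response element) was present once, between 60 and 64 bases before the start, against 17.8% of promoters holding it. The TATA box letters TATAAA were not in the window and were present in 12.4% of promoters. Nor was a full cAMP response element, TGACGTCA, which contains TGACG and which 1.55% of promoters held. A GC box, GGGCGG, was not found, against 32.7% of promoters holding one. The letters CCAAT were not found either and were in 33.8% of promoters. These matches are letters only and were not tested as binding sites.

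Levels are given as CPM, each well's *Crhbp* count divided by its sum over genes without ERCC and scaled to 1000000. *Crhbp* reached 1 CPM or more in 55 of 56 wells, 98.2% with an exact Clopper-Pearson 95% interval from 90.4% to 99.95%. The exception was well B6, which held 357 gene counts in all, so that its 0 allows up to 8408 CPM at the limit of 3 counts. The interval on the share of wells treats the wells as independent draws, although they count as 1 sample. Intervals and limits on CPM cover counting error only, since the protocol has no molecular identifiers. The lowest level above 0 was 9.23 CPM in well B12, the median over all wells was 1432 CPM and the highest was 29088 CPM in well G10. The interval was 7.12 to 11.8 CPM in B12 and 28974 to 29203 CPM in G10, so counting error is small beside the difference between wells. At limits of 10, 100, 1000 and 10000 CPM, 54, 47, 35 and 6 wells reached the limit.

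**Figure D1:**
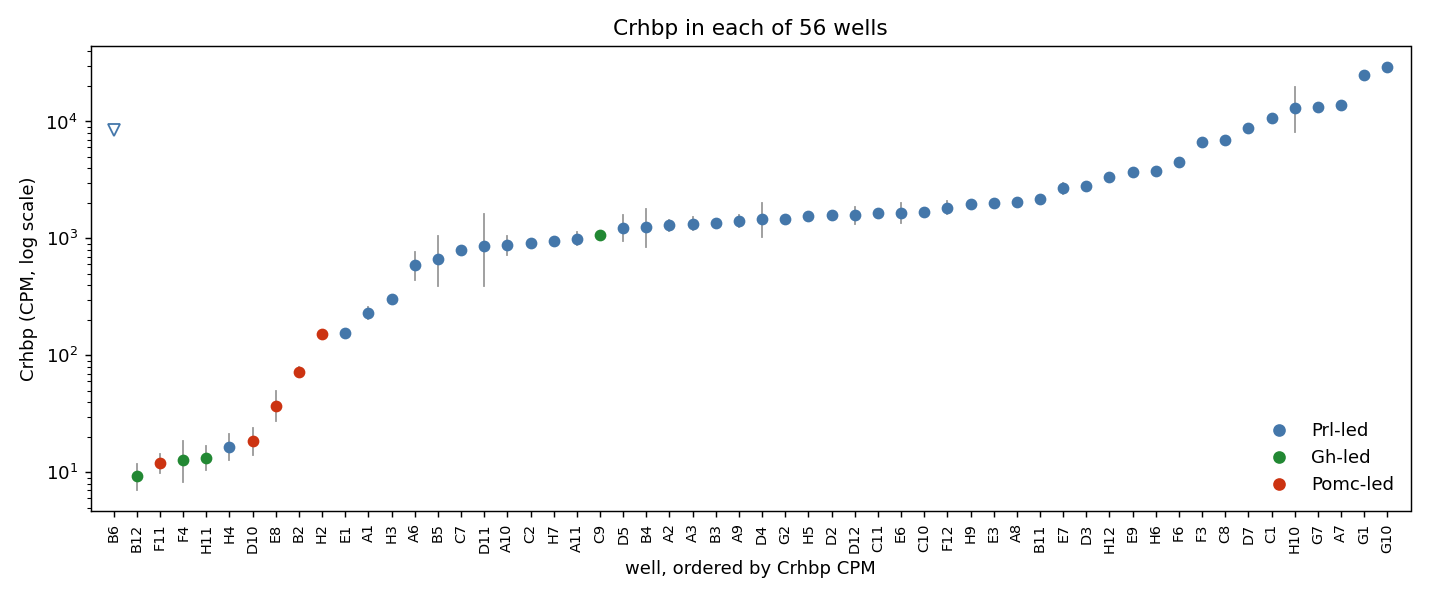
*Crhbp* in each of the 56 wells (CPM on a log axis), ordered by level and coloured by the leading hormone of the well. Grey lines are exact 95% intervals from counting error, mostly hidden by the points, and the open triangle marks the limit of 3 counts in B6, which had no *Crhbp* count. Levels run from 9.23 CPM in B12 to 29088 CPM in G10, and the *Pomc*-led and *Gh*-led wells, apart from C9, lie at the low end.

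A few wells held most of the transcript. G10 alone gave 15.6% of the CPM summed over wells, and the 5 highest wells gave 50.3%. After G10 came G1 at 24875 CPM, A7 at 13724 CPM, G7 at 13252 CPM, H10 at 13041 CPM and C1 at 10614 CPM. H10 is the weakest of these, with 22 *Crhbp* counts among 1687 gene counts and an interval from 8190 to 19678 CPM. In G10 *Crhbp* took 2.91% of all gene counts and in G1 2.49%. It was the second most abundant gene in 4 wells (A7, C1, G1 and G7), was among the highest 3 genes in 10 wells and among the highest 10 in 13 wells. Over the whole plate it ranked 7 of 47069 genes by mean CPM (3338 CPM). Per kilobase of exon, the scale on which genes can be set side by side, it ranked 21 by mean level (3000 TPM, the share of counts per kilobase scaled to 1000000).

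At the low end, 8 wells with a count were under 100 CPM, and none of these was shallow. Their levels were 9.23 CPM in B12, 11.9 in F11, 12.7 in F4, 13.4 in H11, 16.6 in H4, 18.5 in D10, 37.3 in E8 and 72.7 in B2, at 1314330 gene counts or more. Between 5 or more wells on each side, the widest step in the ordered levels was 2.09-fold, from B2 to H2 at 152 CPM. With every well of 100000 or more gene counts thinned to 100000, all 46 such wells kept at least 1 *Crhbp* count, down to 1 in F4 and 2 each in B12, D10, H11 and H4.

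The same counts were set against the ERCC counts of the well, a scale that does not depend on the other genes of the cell. On it *Crhbp* ran from 0 in B6 and 0.197 counts per 1000 ERCC counts in A6 to 14518 in G1, with a median of 5.06. Here the ordered levels had a wider step of 4.93-fold, from 41.7 in E1 to 205 in H9, with 42 wells above 0 below it and 13 wells above it. The 13 wells were G1 and G10 (14518 and 9154), then D7, C1, A7, F6, E9, H12, C8 and G7 between 1605 and 3150, and B11, H10 and H9 between 205 and 545. The place of H10 rests on 22 *Crhbp* counts and 42 ERCC counts. All 13 were led by *Prl*, and their levels in CPM ran from 1953 to 29088 with a median of 8713. The other 43 wells ran from 0 to 6688 CPM with a median of 1070, so the 2 sets overlapped in CPM and were apart only on the spike-in scale. Of the 10 wells highest in CPM, 9 were among the 13, the exception being F3.

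Spike-in shares moved with this split. ERCC took 0.144% to 2.43% of the counts in the 13 wells and 0.348% to 74.9% in the other 43. In the 20 wells with a share of 30% or more, *Crhbp* lay in a narrow band, with a lowest level of 588 CPM, a median of 1432 and a highest of 6688, and an SD of 0.78 on the log2(CPM + 1) scale. In the 36 wells with a smaller share it ran from 0 to 29088 CPM with a similar median of 1407, but the SD was 3.80. The middle 50% of wells lay between 1179 and 1667 CPM in the first set and between 132 and 3906 CPM in the second. The 2 sets differ in make-up, since the first holds only wells led by *Prl*. All wells led by *Pomc* or *Gh*, and B6 without a count, are in the second. The 27 wells of the second set led by *Prl*, B6 included, had a median of 2153 CPM and an SD of 3.21. Over the 46 deeper wells (100000 or more gene counts), the Spearman correlation of *Crhbp* CPM was -0.11 with the gene counts, -0.01 with the number of genes and -0.17 with the spike-in share. The part that spike-in share plays in the levels was not tested.

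**Figure D2:**
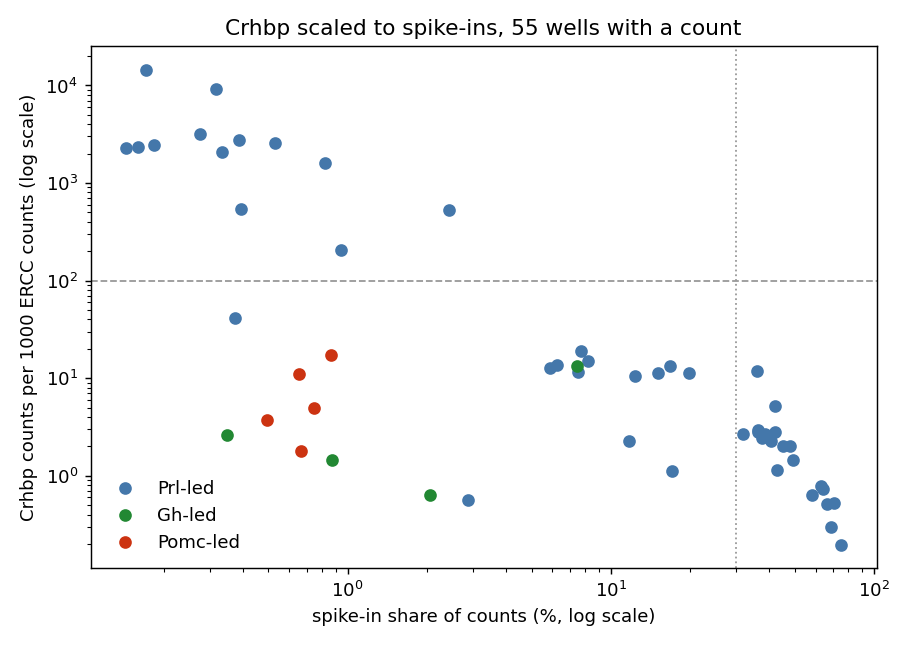
*Crhbp* counts per 1000 ERCC counts against the ERCC share of all counts in 55 wells with a *Crhbp* count, both on log axes, coloured by leading hormone. The dashed line at 100 separates 13 wells, all *Prl*-led, from 42, and the dotted line marks a share of 30%. The scale divides by the ERCC counts, so a downward slope is partly built in.

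Wells were next grouped by the hormone gene with the highest CPM among *Prl* (prolactin), *Gh* (growth hormone), *Tshb* (the thyrotropin beta subunit), *Pomc*, and *Lhb* with *Fshb* (the gonadotropin beta subunits). *Prl* led in 47 wells, *Pomc* in 5 and *Gh* in 4. *Crhbp* in the *Prl*-led wells had a lowest level of 0 CPM (B6), a median of 1579 and a highest of 29088. In the *Pomc*-led wells it was 11.9 CPM in F11, 18.5 in D10, 37.3 in E8, 72.7 in B2 and 152 in H2. In the *Gh*-led wells it was 9.23 CPM in B12, 12.7 in F4, 13.4 in H11 and 1070 in C9. All 5 *Pomc*-led wells were below every *Prl*-led well but B6 and H4, since the next lowest *Prl*-led well was E1 at 157 CPM. The *Pomc*-led and *Gh*-led levels overlapped each other. C9, the *Gh*-led well inside the *Prl*-led range, also held 124249 CPM of *Prl*, against 2069 to 2286 CPM in the other *Gh*-led wells. *Gh* itself was 307675 CPM in C9, but 10514 in B12, 5384 in F4 and 12350 in H11. The median of *Gh* was 11432 CPM in *Gh*-led and 12912 CPM in *Prl*-led wells. In B12, F4 and H11 *Gh* thus led at a low *Prl* level and not at a raised *Gh* level.

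The difference from *Prl*-led wells in the median of log2(CPM + 1) was -5.37 in *Pomc*-led wells and -6.82 in *Gh*-led wells, where the SD among *Prl*-led wells was 2.47. Of 5486 genes with a mean of 10 CPM or more and a count in at least 50% of the wells, 20.7% were lower by 1 or more in the *Pomc*-led wells and 0.93% lower by 4 or more. In the *Gh*-led wells these shares were 18.7% and 0.492%. With wells of a spike-in share under 30% alone, the shares were 17% and 0.492% for *Pomc*-led and 14.4% and 0.51% for *Gh*-led wells, and the differences of *Crhbp* were -5.81 and -7.26. *Crhbp* was the fifth lowest of these genes in the *Pomc*-led wells, after *Cited1* (a transcriptional co-regulator), *Prl*, *Pou1f1* and *Dlk1* (a membrane protein related to Notch ligands). It was the lowest of all in the *Gh*-led wells, followed by *Prl*. *Prl* leads by definition in the group it was compared with, and *Crhbp* was chosen with its level in view, so neither place is a test. Counted per 1000 ERCC counts, the differences were -1.06 in *Pomc*-led and -2.36 in *Gh*-led wells on a log2 scale with 0.1 added. On this scale the 20 wells with a spike-in share of 30% or more, all *Prl*-led, held 0.197 to 11.9 *Crhbp* counts per 1000 ERCC counts. Their median was 2.00, against 41.7 in the 27 *Prl*-led wells with a smaller share. The *Pomc*-led and *Gh*-led wells, all with a share under 30%, had medians of 4.95 and 2.04. The differences of -1.06 and -2.36 thus set them against *Prl*-led wells of both kinds.

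**Figure D3:**
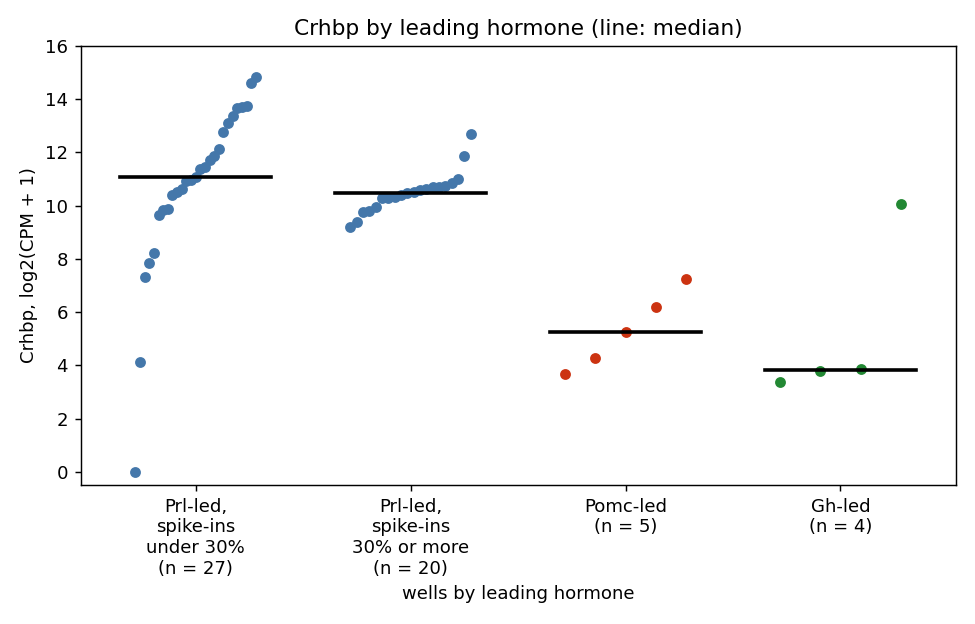
*Crhbp* as log2(CPM + 1) in wells grouped by leading hormone, with the *Prl*-led wells divided at a spike-in share of 30%. Points are wells and lines are medians. The *Prl*-led wells with few spike-ins cover the whole range, those with many lie between 588 and 6688 CPM, and all *Pomc*-led wells and 3 of 4 *Gh*-led wells are at 152 CPM or less.

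The ratio of *Crhbp* to *Prl* separated the wells in another way. In the 20 wells with a spike-in share of 30% or more there were between 1.38 and 15.6 *Crhbp* counts per 1000 *Prl* counts, with a median of 6.09. In the 9 *Pomc*-led and *Gh*-led wells the ratio was 3.73 to 15.2, with a median of 6.46, so all 9 lay inside that band, while the *Crhbp* level itself was 9.23 to 1070 CPM in them. The 27 *Prl*-led wells with a smaller spike-in share ran from 0 to 111, with 11 above the band and 5 below it. Highest were G10 at 111, H10 at 61.5 and G1 at 53.3 *Crhbp* counts per 1000 *Prl* counts. Lowest among wells with a count were E1 at 0.508, H3 at 0.956, H4 at 1.16 and C2 at 1.17. Of the 13 wells set apart on the spike-in scale, 10 were above the band.

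E1 and G10 show the span among wells with much *Prl* and few spike-ins. E1 held 308660 CPM of *Prl* with 157 CPM of *Crhbp* at a spike-in share of 0.375%, while G10 held 261669 CPM of *Prl* with 29088 CPM of *Crhbp* at 0.317%. C2 had the highest *Prl* of the plate, 776624 CPM, and 912 CPM of *Crhbp*. A high *Prl* level thus went with *Crhbp* levels on both sides of the median.

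**Figure D4:**
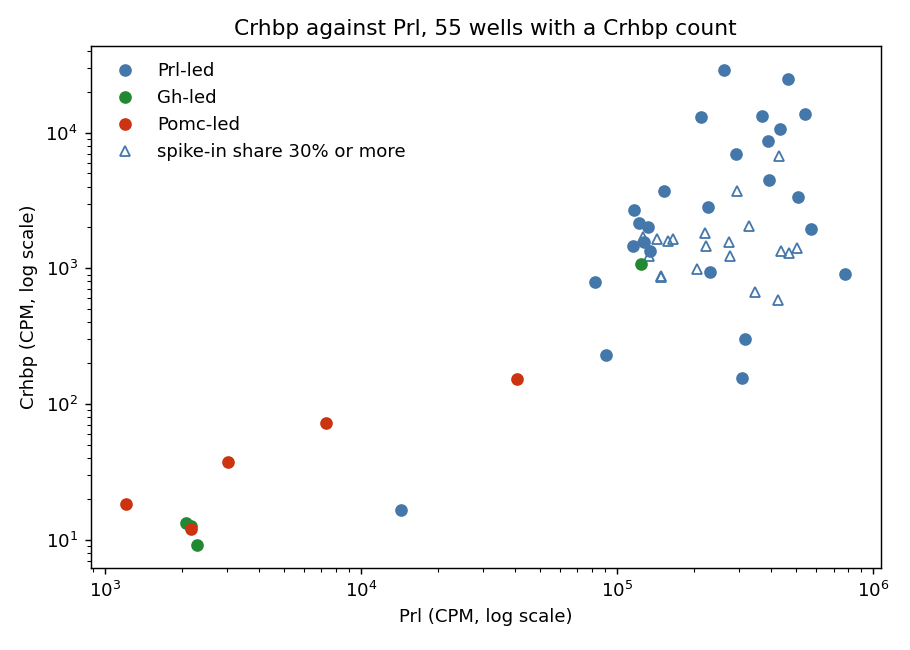
*Crhbp* against *Prl* (CPM, both on log axes) in 55 wells with a *Crhbp* count, coloured by leading hormone; open triangles are wells with a spike-in share of 30% or more. Between 1216 and about 100000 CPM of *Prl*, *Crhbp* is higher at the upper end than at the lower end, but the rise is not steady. Among wells above that *Crhbp* runs from 157 to 29088 CPM.

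Over the 46 deeper wells the Spearman correlation of *Crhbp* CPM was 0.64 with *Prl*, -0.02 with *Gh*, -0.13 with *Pomc*, -0.03 with *Cga* (the alpha subunit shared by the glycoprotein hormones) and -0.01 with *Lhb*. These points share a capture plate and a CPM denominator in which *Prl* alone can take most of the counts. Within the 37 *Prl*-led wells the value for *Prl* was 0.35, and that for *Gh* was -0.25. *Fshb* was detected in 2 wells and *Tshb* in 23. In E3, which held the most *Lhb* (59401 CPM), *Crhbp* was 2005 CPM.

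The plate fell into columns 1 to 3 and 7 to 9 (29 wells) and columns 4 to 6 and 10 to 12 (27 wells), which differ in spike-in share. *Crhbp* had a median of 1467 CPM (range 37.3 to 24875) in the first set and 1241 CPM (range 0 to 29088) in the second, a difference of 0.24 in log2(CPM + 1). Of wells with a spike-in share under 30%, the first set held 24 with a median of 1519 CPM and the second held 12 with a median of 17.5 CPM. Those 12 include 5 of the 9 wells not led by *Prl*, B6 without a count, and H4. Both sets held wells from the upper group on the spike-in scale, 8 and 5. Wells C10 and C11 had nearly identical profiles, with 765 and 751 *Crhbp* counts (1694 and 1656 CPM), and leaving out C11 moved the median to 1409 CPM.

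The marker genes of pituitary and other cell types were read beside these levels. In the 13 wells set apart on the spike-in scale, *Prl* ran from 122068 to 573124 CPM. *Pou1f1* was detected in 10 of them, all but G10, H9 and H10, with a median of 154 CPM over the 13. In the other 43 wells *Pou1f1* reached 1 CPM in 40, with a median of 33.5 CPM and a highest level of 695 CPM in H11. Its detection thus did not set the 13 wells apart. *Drd2*, the dopamine receptor of lactotropes, was detected in 1 of 56 wells (G1, 16.6 CPM). The label lactotrope thus rests on *Prl* and on *Pou1f1*, which is also on the list for somatotropes. *Gh* in these 13 wells had a lowest level of 162 CPM, a median of 1308 and a highest of 35891. The 5 endothelial markers summed to 8855 CPM in H4, where *Crhbp* was 16.6 CPM and *Prl* 14379 CPM, and to 979 CPM in F6, where *Crhbp* was 4493 CPM. The 4 globin genes, which mark red blood cells, reached 146551 CPM in F11, a *Pomc*-led well with 11.9 CPM of *Crhbp*. Of the 6 pericyte and fibroblast markers, *Col1a2* reached 1 CPM in 10 of the 13 wells, with a median of 133 CPM against 5.00 CPM in the other 43, and *Pdgfrb*, *Rgs5*, *Col1a1*, *Dcn* and *Lum* had no count there. *Gstm1*, on the list for folliculostellate and stem cells, reached 1 CPM in 11 of the 13 wells, with a median of 117 CPM against 2.95 CPM in the other 43, and had a correlation of 0.55 with *Crhbp*. Of the other 5 markers on that list, *S100b*, *Sox2* and *Fxyd1* had no count in the 13 wells, and *Sox9* and *Aldh1a2* reached 1 CPM in 2 wells each. The summed list ran from 0 to 838 CPM in the 13 wells and from 0 to 2580 CPM in the others. What these other cell types contribute to the *Crhbp* levels was not tested.

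The ligands and receptors of the pathway were read beside the binding protein. *Crh*, *Ucn* and *Ucn3*, which encode ligands, were at 0 in all 56 wells, which over 132709195 summed gene counts allows up to 0.0226 CPM, and *Ucn2* reached 1.10 CPM in 1 well. *Crhr2* was detected in 1 well, at 5.00 CPM. *Crhr1* was detected in 11 wells. It was highest, apart from a single count in B6, in the *Pomc*-led wells B2 (313 CPM), D10 (145 CPM) and H2 (49.4 CPM), where *Crhbp* was 72.7, 18.5 and 152 CPM. The remaining *Pomc*-led wells, E8 and F11, had no *Crhr1* count, with *Crhbp* at 37.3 and 11.9 CPM. In the *Prl*-led wells with *Crhr1* at 1 CPM or more, other than B6, *Crhr1* ran from 2.23 to 47.1 CPM. In these 7 wells *Crhbp* ran from 301 to 3739 CPM with a median of 1467. *Crhbp* had a median of 1293 CPM over the 11 wells with *Crhr1*, B6 entered as 0, and of 1572 CPM over the other 45, with overlapping ranges. This division is rough, since A2 and B3 held 1 *Crhr1* count each and H6 held 2. Some of the other 45 wells were shallow, and the limit of 3 counts was 287 CPM in D11. G10 and G1, highest in *Crhbp*, held 0.6 CPM and 0 of *Crhr1*. *Avpr1b*, the vasopressin receptor of corticotropes, did not reach 1 CPM in any well. *Tbx19*, the factor that defines *Pomc* cells, was detected in 14 wells with its highest level in B2 (1289 CPM).

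Of the 24 CRH pathway genes, 8 were detected in at least 28 wells and 10 passed the filter for correlation with *Crhbp* over the deeper wells, beside 11% and 12.5% of all genes. Their median correlation was -0.01, between -0.23 for *Pcsk1* (a convertase that cleaves the *Pomc* product) and 0.32 for *Prkaca* (a catalytic subunit of protein kinase A), with 5 below 0. Over all 5886 genes passing the filter the median was 0.10, and 25.0% were below 0. None of the 10 reached 0.5, a value reached by 0.782% of all genes. Of 10 pathway genes in the comparison of *Pomc*-led with *Prl*-led wells, 8 were higher by 1 or more in the log2 median and none was lower by 1 or more, beside 38.9% of all genes that were higher. The list holds *Pomc*, which defines the group. It also holds *Pcsk1*, *Pcsk2* and *Cpe*, listed as genes of corticotrope and melanotrope output and all among the 8. Their higher level in *Pomc*-led wells was thus partly built into the list. In *Gh*-led wells, where *Crhbp* was also low, 5 of the 10 were higher by 1 or more (*Cpe*, *Gnas*, *Pcsk1*, *Prkacb* and *Prkar1a*), beside 34.9% of all genes, and 3 were lower by 1 or more (*Pcsk2*, *Pomc* and *Tsc22d3*) in the median of the log2 values. *Cpe* (a carboxypeptidase that trims hormone precursors) had a median of 1571 CPM in *Pomc*-led and 224 CPM in *Prl*-led wells, and *Prkar1a* (a regulatory subunit of protein kinase A) had 918 and 195 CPM. *Nr3c1*, the glucocorticoid receptor, was detected in 18 wells, with medians of 171 CPM in *Pomc*-led and 0 in *Prl*-led wells. These groups differ in depth. Every *Pomc*-led well held 1314330 gene counts or more, while *Prl*-led wells ran down to 357 with a median of 453587. The part of depth in these pathway differences was not tested.

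Other secreted proteins that bind hormones or growth factors were mostly at low levels. Of 19 such genes, 14 were detected in any well and 2 in at least 28 wells, beside 51.3% and 11% of all 47069 genes, so the second share is near that of all genes. Those 2 were *Npc2*, a lysosomal and secreted cholesterol-binding protein (median 80.8 CPM, highest 2149 in E7), and *Rbp4*, the retinol carrier (median 2.11 CPM, highest 908 in H11). Their correlations with *Crhbp* were 0.16 and -0.20. *Igfbp3*, a carrier of insulin-like growth factors, was detected in 20 wells with a highest level of 458 CPM in C8. *Fst*, the activin-binding protein follistatin, *Serpina6*, which encodes the corticosteroid carrier, and *Ttr* were at 0 throughout.

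Among 18 receptors and regulators of the sex steroid and hypothalamic axes, 7 passed the filter, beside 12.5% of all genes. *Pou1f1* had a correlation of 0.53 with *Crhbp*, and its medians were 115 CPM in *Prl*-led, 1.32 in *Pomc*-led and 5.10 in *Gh*-led wells. Single wells went the other way. H11, with the highest *Pou1f1* of the plate (695 CPM), held 13.4 CPM of *Crhbp*, and G10 and G1, highest in *Crhbp*, held 0.48 and 10.7 CPM of *Pou1f1*. *Greb1*, a gene induced by oestrogen in several tissues, had 0.49, and the oestrogen receptor gene *Esr1* had 0.05. *Nrip1*, a co-repressor of nuclear receptors, was the lowest of the list at -0.17. The median of the 7 was 0.09, near that of all genes. The 10 secretory granule genes, whose products package hormones, all passed the filter. Their median was -0.03 and the highest value was 0.27 for *Chgb* (chromogranin B). Of these 10 genes, 5 were below 0, beside 25.0% of all genes passing the filter. *Scg2* (secretogranin II), which is among the most abundant of them, had 0.01.

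The 10 genes with the highest Spearman correlation with *Crhbp* over the 46 deeper wells were led by *Creb3l1* at 0.73. It encodes a transcription factor held in the endoplasmic reticulum membrane and released by cleavage. Its level ran from 0.08 CPM to 1914 CPM in B11, with a median of 36.3 CPM. Next came *Tmem45a*, a membrane protein gene, at 0.65, then *Ptrh2* (a peptidyl-tRNA hydrolase), *Gmppb* (an enzyme that makes GDP-mannose for glycosylation) and *Prl*, each at 0.64. *Fkbp11* (a prolyl isomerase of the secretory pathway), *Ptpro* (a receptor-type tyrosine phosphatase), *Copz2* (a subunit of the COPI vesicle coat) and *Entr1* (an endosomal protein) were at 0.61, and *Col1a2* (a collagen I chain) was at 0.60. *Fkbp11* was the most abundant after *Prl*, with a median of 84.9 CPM and a highest level of 2000 CPM in A7. *Tmem45a*, *Entr1* and *Col1a2* had medians under 10 CPM and counts in 31, 31 and 39 of the 46 wells, so many of their ranks are ties at 0.

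At the other end were *Slc24a2* (a sodium, potassium and calcium exchanger) at -0.40, *Klf10* (a transcription factor) at -0.39, *Tecpr1* (an autophagy gene) at -0.38, *Mad2l2* (a DNA repair gene) at -0.37 and *Btg1* (an antiproliferative gene) at -0.36. All but *Btg1* had medians under 3 CPM in these wells. The lower end was thus shorter than the upper end, with 46 genes at 0.5 or above and 1 gene at -0.4 or below.

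Much of this order changed among *Prl*-led wells alone. Within the 37 deeper *Prl*-led wells, all 10 genes kept a positive correlation with *Crhbp*, from 0.35 for *Prl* to 0.70 for *Fkbp11*, but the median of all genes there was 0.26 and none of the 10 stayed among the highest 10. In these wells the highest values belonged to *Hprt* (a purine salvage enzyme) at 0.82, *Cavin3* (a caveolar coat protein) at 0.82 and *Gnpnat1* (an enzyme of amino sugar synthesis) at 0.80, which were named after their values were seen. In the 34 deeper wells with a spike-in share under 30%, 7 of the 10 stayed among the highest 10 and *Creb3l1* stood at 0.79. Of 8 of the 10 genes with a promoter in the RefSeq table, *Prl* held 2 matches to ATGNATA and the other 7 held none.

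**Figure D5:**
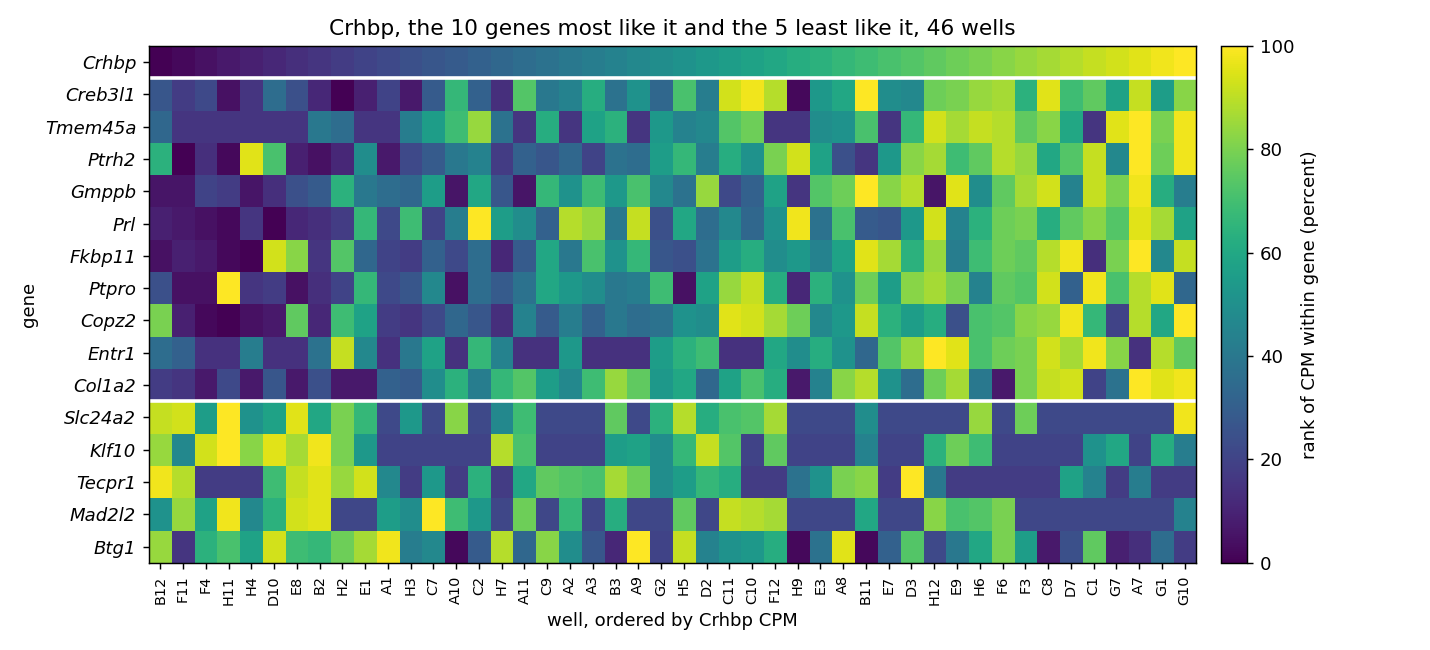
Rank of CPM within each gene, as a percent, for *Crhbp* (top row), the 10 genes most like it and the 5 least like it over 46 wells of 100000 or more gene counts, ordered by *Crhbp*. The upper genes are mostly dark at left, where the *Gh*-led and *Pomc*-led wells lie, and brighter at right; single wells such as H9 and C11 break the order.

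The genes on either side of *Crhbp* did not share its level. *Aggf1*, 56019 bases away on the side of lower coordinates, was detected in 36 wells with a median of 6.14 CPM and a correlation of 0.03. *S100z*, 32344 bases away on the other side, was at 0 in every well, and *F2rl1*, 66808 bases away, was detected in 1 well. Between *Aggf1* and *Crhbp* lies *Gm48712*, a processed pseudogene that was not in the count table.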

How the data were processed

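The authors deposited 1 table of estimated counts for 56 wells, holding 47069 genes and 92 ERCC spike-ins, made with featureCounts and not scaled to depth; reads could be divided between features, but every *Crhbp* count was whole. The submitters' processing notes name STAR 2.5.1b, featureCounts 1.5.0-p1 and mm10; strand and multi-mapping settings are not given in the sources used here. Gene counts per well ran from 357 to 12563266, with 46 wells at 100000 or more.

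CPM was computed over gene rows without ERCC. Symbols, coordinates and exon lengths were taken from GENCODE M21 by identifier without version (46488 matched), and promoters from RefSeq. Exact Clopper-Pearson intervals at 95% on CPM and the limit of 3 counts cover counting error only. The same interval on the share of wells treats wells as independent draws. With 1 sample no test was run. Likeness was Spearman's rho over genes with a mean of 10 CPM or more and a count in at least 50% of the deeper wells, in Python 3 with pandas and scipy. The code was run on simulated counts with genes made to follow *Crhbp*. These had no extra dropout and no groups of wells, so that run checks the code only. Thinning drew reads without replacement.

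The gene, the lists and the wells to compare were chosen with earlier results of these data known. Named genes were *Crhbp*, members of the lists, the hormones, the 10 highest and 5 lowest correlations, and neighbours; *Cited1*, *Dlk1*, *Hprt*, *Cavin3* and *Gnpnat1* were named after their values were seen. The split at a spike-in share of 30%, the line at 100 per 1000 ERCC counts and the ratio to *Prl* were also chosen after seeing the data. Doublets were not called.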

Additional observations from a re-analysis of the deposited data

How the results depend on the processing

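The share of wells with *Crhbp* was 83.9% at 100 CPM and 62.5% at 1000 CPM, and 100% in wells of 100000 or more gene counts, in these wells thinned to 100000, and without B6 and H10. The median was 1994 CPM with *Prl*, *Gh*, *Pomc*, *Cga* and *Lhb* left out of the total and 912 CPM in the 25 wells of 1000000 or more gene counts. Per 1000 ERCC counts, the log2 differences from *Prl*-led wells of every spike-in share were -1.06 (*Pomc*-led) and -2.36 (*Gh*-led). Under the other settings they lay between -5.81 and -5.07 and between -7.42 and -6.11. The difference between plate column sets was -0.083 in wells of 100000 or more gene counts, turning its direction, and 6.36 in wells with a spike-in share under 30%. The cause was not tested.

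Of the 10 genes most like *Crhbp*, 5 stayed among the highest 10 over all 56 wells, 4 in wells of 1000000 or more gene counts, 6 after thinning, 3 within either plate column set and 0 in *Prl*-led wells. After thinning, 3474 genes passed the filter, and *Tmem45a* and *Entr1* did not, so they could not be ranked. The rank of *Crhbp* by mean level was 21 per kilobase of exon.
The correlations with *Gh*, *Pomc*, *Cga* and *Lhb* took both signs across settings. In plate columns 1 to 3 and 7 to 9 they were -0.0034, -0.40, -0.23 and -0.15, and that with *Gh* was -0.35 in wells of 1000000 or more gene counts. In plate columns 4 to 6 and 10 to 12 they were 0.0025, 0.18, 0.081 and 0.084. By Pearson's r they were 0.0027, 0.0040, 0.097 and 0.063, and per 1000 ERCC counts 0.48, 0.63, 0.24 and 0.31. The spike-in scale divides both genes by the same ERCC counts, so positive values on it are partly built in. For *Cga* and *Lhb* the correlations were 0.077 and 0.074 over all wells and 0.029 and 0.047 without the hormones in the total. For *Cga* the value was 0.0062 in wells of 1000000 or more gene counts. The correlation with *Prl* stayed positive, from 0.35 to 0.91, where 0.91 is the value per 1000 ERCC counts. The highest value for *Prl* on other scales was 0.87, by Pearson's r.

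No paired analysis was possible because the wells form 1 group. Settings limited by spike-in share, to *Prl*-led wells, without C9 or per 1000 ERCC counts for correlations were chosen after seeing the data. No value has a replicate check, and differences between cells and differences between captures cannot be told apart.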
